A study of Homo sapiens with 18 samples.

Results

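The experiment described here added ETV6 carrying the R369W substitution to MEG-01 cells whose own ETV6 gene had not been edited. It consists of 6 of the 18 messenger RNA libraries of the series: 3 of unedited cells given the R369W vector and 3 of unedited cells given an empty vector (EV), taken by their labels and paired by the replicate number in their titles. MEG-01 (Meg01 in the labels) is an established human megakaryoblastic leukemia line, and unedited cells are those labelled with genotype WT. All cells, controls included, were transduced with a lentivirus and harvested on day 3. The EV libraries therefore carry vector but no added ETV6. The other 12 libraries, used here only for comparison, were 3 of unedited cells given ETV6 of normal sequence and 9 of cells labelled as an ETV6 knockout, 3 each with EV, ETV6 or R369W. The sources used here give neither the promoter of the vectors, the share of cells transduced, whether a line was 1 clone, nor the meaning of the replicate numbers 2, 3 and 4. The design text calls the libraries of a group biological replicates without saying how they were grown apart, and the p-values below measure only the spread between these libraries.

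ETV6 belongs to the ETS family and represses transcription. It binds DNA with a carboxy-terminal ETS domain that reads a short site around the letters GGAA, recruits corepressors such as NCOR1, SIN3A and HDAC3 through its central region, and forms oligomers through an amino-terminal pointed domain. R369W lies in the ETS domain. Inherited variants of this domain cause a low platelet count with a predisposition to leukemia, and ETV6 is needed for the late steps of platelet formation. Adding R369W to unedited cells asks what the variant protein changes while the cell's own ETV6 is present.

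The 6 libraries held 12577816 to 16041684 gene reads each. Unaligned reads were 0.586% to 0.809% of the 3 EV libraries, 0.296% to 0.337% of the R369W libraries and 0.301% to 0.349% of the ETV6 libraries, which sets the EV libraries apart. Other shares of listed reads set the R369W libraries apart. Reads given to no gene were 40.8% to 41.6% with R369W, 36.5% to 39.1% with EV and 35.3% to 38.4% with ETV6. Reads of low alignment quality were 4.32% to 4.68%, 2.13% to 3.57% and 2.17% to 3.51% in the same order, and reads without a unique position 14.4% to 15.4%, 11.1% to 13.3% and 12.0% to 13.8%. These shares move with the vector as every call below does, and their part in the calls was not tested. Levels are given as CPM, gene reads per 1e6 after TMM scaling over the 18 libraries; 3 reads, the most that a count of 0 allows, come to 0.187 to 0.239 CPM, for counting error only. Libraries with the same number deviated together from their group means: across 10746 genes, which are not independent replicates, the correlation between an EV and an R369W library was 0.823 to 0.900 within a number and -0.616 to -0.0223 between numbers. Differential expression was therefore read from an edgeR quasi-likelihood fit of the 9 unedited libraries with the replicate number as a block, with Benjamini-Hochberg adjustment over all genes tested and a threshold of 0.05. Of 8 megakaryocyte markers, 6 averaged at least 1 CPM, PF4 had 0 reads and GP9 had 10 reads in the 6 libraries. Their summed level was 1879 to 2068 CPM with EV and 1964 to 2173 CPM with R369W. All 5 erythroid markers averaged at least 1 CPM (914 to 1674 CPM summed with EV, 832 to 1462 CPM with R369W). None of 4 B-lymphoid, 4 T and NK lymphoid and 4 fibroblast markers did, and ITGAM was the only one of 4 myeloid markers that did.

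ETV6 messenger RNA was raised by the vector in every pair. ETV6 (chr12:11649854-11895402, plus strand, GRCh38, GENCODE 29 gene span) stood at 66.0, 78.3 and 146 CPM with EV and at 2054, 2835 and 2745 CPM with R369W, in the order of replicates 2, 3 and 4, which is used throughout. All 3 R369W libraries were far above all 3 EV libraries. The rise was 27.0-fold (log2 4.75, SE 0.15, adjusted p = 5.66e-12). With the ETV6 vector the level was 2313, 2404 and 2608 CPM, and the log2 difference, R369W minus ETV6, was 0.05 (SE 0.13, adjusted p = 0.843). These counts cannot tell R369W from normal ETV6, or transcripts of the vector from those of the cell's own gene. In bulk libraries, a change in RNA per cell and a change in the share of cells of 1 kind, transduced cells included, cannot be told apart.

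With R369W, 210 of 11733 genes were higher and 41 were lower than with EV, 2.14% of genes tested in all (1.79% higher and 0.349% lower). All 251 were protein-coding, and the share of such genes among all genes tested is not given here. Most changes were small: the median was 1.36-fold among genes that rose and 1.29-fold among those that fell, 151 and 36 of them changed by less than 1.5-fold, and 25 rose and 1, WNT7A, fell by more than 2-fold. All 251 moved in the same direction in all 3 same-numbered pairs, but the 2 groups overlapped for most of them. A fit blocked by these pairs favours genes that move alike in them, so that agreement is no separate evidence. The 3 R369W libraries lay above all 3 EV libraries for 75 of the 210, against 3.43% of all genes tested, and below them for 13 of the 41, against 3.49%. The calls were made from the same libraries, so these counts are no separate evidence either. The calls rest on the pairing and on every library. Without the block, ETV6 alone passed in the 9 unedited libraries (237 genes at an unadjusted p under 0.05), and ETV6, CLIC5 and MYT1 passed in a fit of all 18. Leaving out EV replicate 2, 3 or 4 gave 132, 109 or 98 calls, and leaving out R369W replicate 2, 3 or 4 gave 162, 68 or 120. Without all libraries of replicate 3, 41 genes passed, and without those of replicate 4, 155. With no filter on low counts, 384 genes were higher and 157 lower (71.0% higher, against 83.7%), and in a fit of the 6 libraries alone 499 and 272 (64.7% higher).

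Stretches just before RefSeq start sites of 3 raised genes are shown because they hold the GGAAGT form of the ETS site, searched on both strands, in the 120 bases upstream. They were taken from RefSeq (GRCh38.p14) for every raised gene named by the rule below that holds a match there and whose 120 bases lie outside its GENCODE 29 gene span, and so after the genes' values were seen. Capitals mark the matches, and ACTTCC is GGAAGT read on the other strand. GP6 (chr19:55038265-55038384, minus strand) and VAV1 (chr19:6772588-6772707, plus strand) were among the firmest rises. IDI1 (chr10:1056705-1056824, minus strand) holds 3 matches, but RefSeq has 3 windows for this gene, and the start site of the one shown, the first listed, lies 7534 bases upstream of the GENCODE 29 gene start. For GP6 and VAV1, with 1 window each, that distance is 0 and 6 bases.
GP6: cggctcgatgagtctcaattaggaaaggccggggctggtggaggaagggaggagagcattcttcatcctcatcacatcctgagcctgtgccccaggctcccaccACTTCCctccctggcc
VAV1: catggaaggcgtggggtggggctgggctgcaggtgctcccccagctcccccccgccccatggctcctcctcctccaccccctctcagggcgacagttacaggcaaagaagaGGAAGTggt
IDI1: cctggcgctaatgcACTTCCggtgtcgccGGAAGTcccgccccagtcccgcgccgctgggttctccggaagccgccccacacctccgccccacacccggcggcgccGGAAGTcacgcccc
The match begins 16 bases before the start site in GP6 and 9 bases before it in VAV1. Over the 300 bases from 250 before to 50 after the start site, in the first window listed for each gene, GGAAGT was present in 51 of the 159 raised genes with a RefSeq window (32.1%), in 8 of 33 lowered genes (24.2%), in 28.4% of the genes tested and in 23.2% of all RefSeq windows. The longer form CCGGAAGT, which contains GGAAGT, was present in 6.29% of the raised genes and 9.31% of the genes tested.

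The largest rises were of genes that unedited EV cells hardly expressed. In the genes given here with their 6 values, the call held with each of the 6 libraries left out in turn unless a library is named. CLIC5 encodes a chloride intracellular channel protein that associates with the actin cortex. It stood at 0.529, 0.153 and 0.0619 CPM with EV and 19.5, 26.4 and 3.81 CPM with R369W. Each R369W library was above every EV library, with replicate 4 the lowest of the R369W libraries, and the rise was 5.99 on the log2 scale (SE 0.29, adjusted p = 3.38e-08). MYT1, a zinc finger transcription factor known from neural cells, had 1, 0 and 0 reads with EV and 38, 76 and 35 with R369W. Its summed reads, scaled by library size, were 168 times as many (95% interval 29.7 to 6684, counting error only; edgeR adjusted p = 9.83e-06). BIRC7, an inhibitor of apoptosis, had 1, 0 and 0 reads with EV and 35, 55 and 11 with R369W, a ratio of 114 (20.0 to 4545; adjusted p = 7.32e-05). No EV library had more than 1 read of either gene, and no R369W library had fewer than 11. The filter on low counts let CLIC5, MYT1 and BIRC7 in only through the R369W libraries, so they had to differ.

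ADAMTS4, a secreted metalloprotease that cleaves aggrecan, rose 7.01-fold, from 0.604, 2.06 and 4.21 CPM to 2.46, 13.0 and 34.1 CPM (SE of log2 0.19, adjusted p = 3.17e-07). Its groups overlapped, because the numbers differed more than the vectors: R369W replicate 2 lay below EV replicate 4. GPR85, an orphan G protein-coupled receptor, stood at 9.97, 17.9 and 3.34 CPM with EV and 28.1, 48.2 and 16.5 CPM with R369W. It rose in each pair while R369W replicate 4 stayed below EV replicate 3 (3.12-fold, adjusted p = 1.69e-06). TNFSF10, which encodes the death ligand TRAIL, rose 3.51-fold from 1.59, 7.94 and 2.48 CPM to 4.68, 17.9 and 17.6 CPM (adjusted p = 0.000313), again with overlap, since R369W replicate 2 was below EV replicate 3. SHE, an SH2 domain adaptor, rose 2.91-fold with a call lost without R369W replicate 3 (adjusted p = 0.0517). Its level differed far more between the numbers than between the vectors, at 8.08, 0.0763 and 0.248 CPM with EV and 17.6, 0.476 and 3.11 CPM with R369W. The rises of LRRN2 (2.29-fold), S100P (2.43-fold), ENTREP2 (2.24-fold) and IRAG1 (2.22-fold) rested on more of the libraries. LRRN2 held only without EV replicate 3 or R369W replicate 2, S100P was lost without EV replicate 4 or R369W replicate 3 or 4, ENTREP2 held only without R369W replicate 4, and IRAG1 was lost without each of the 6 (adjusted p up to 0.147, 0.42, 0.158 and 0.154).

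**Figure D1:**
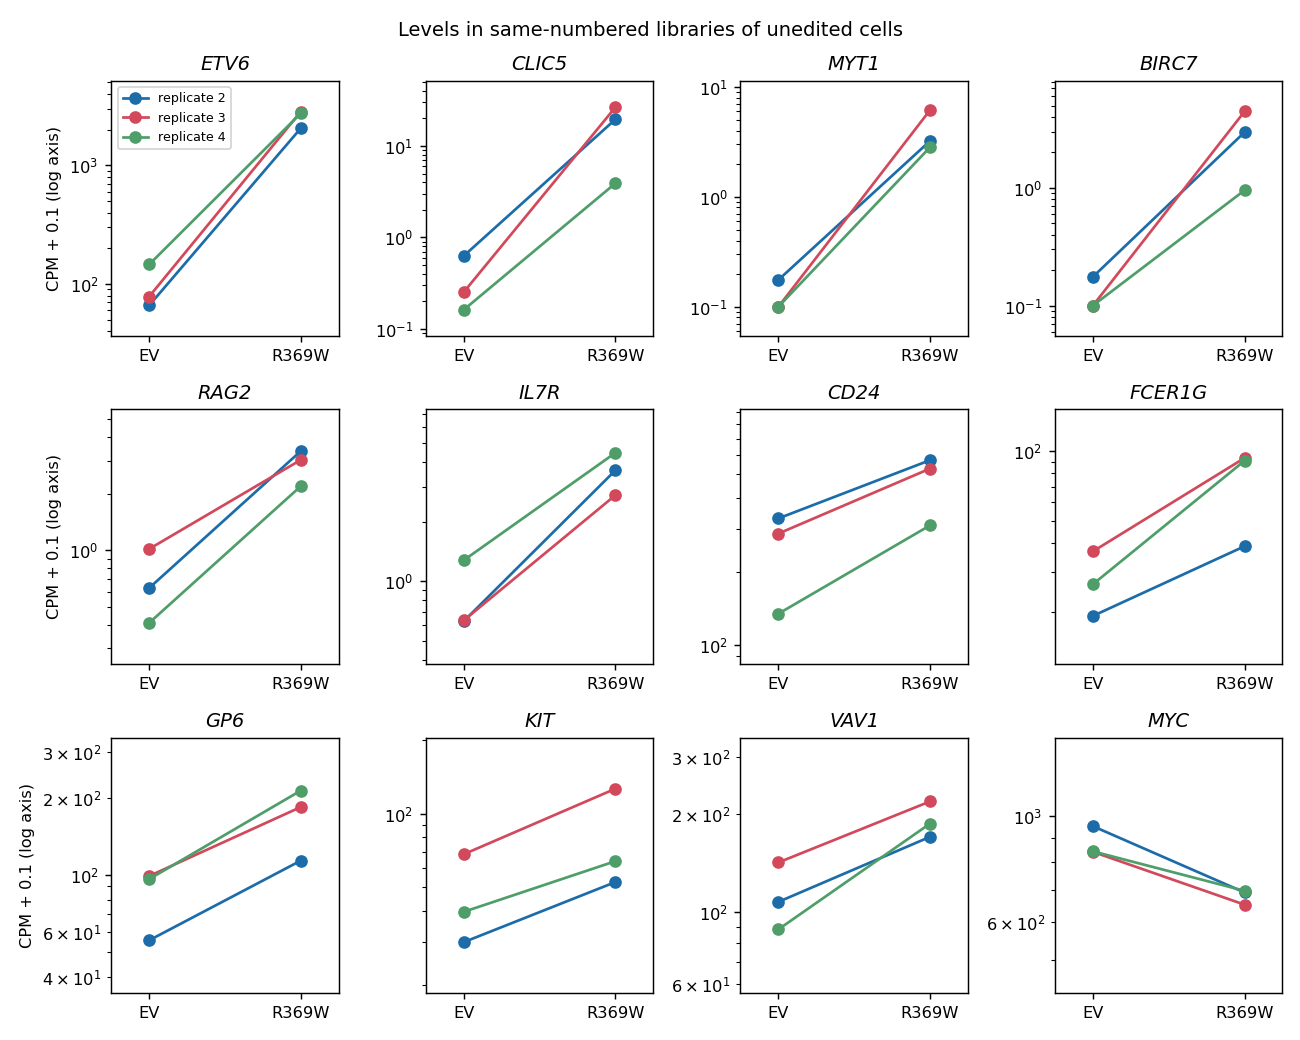
Levels of 12 genes in the 6 libraries, as CPM + 0.1 on a log axis, with EV on the left and R369W on the right of each panel and a line joining same-numbered libraries (blue replicate 2, red replicate 3, green replicate 4). Every line rises in the first 11 panels and falls for MYC, while the starting levels of the 3 numbers differ, for CD24 from 134 to 330 CPM with EV.

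Among genes of lymphoid cells, 4 of 18 B-lymphoid genes passed the filter on low counts. Of these 4, 3 were higher and none lower, against 1.79% higher and 0.349% lower over all genes tested. Their median log2 change was 1.57, against -0.00455 over all genes tested. A gene that passed only through the group where it is high had to differ. CD79B, the member not called, changed by -0.33 (SE 0.31, adjusted p = 0.666). CD24, a small surface glycoprotein of developing B cells and other progenitors, stood at 329.9, 286 and 134 CPM with EV and 571, 527 and 309 CPM with R369W. The lowest R369W library, replicate 4, lay below the highest EV library, replicate 2, but each pair rose (1.93-fold, log2 0.95, SE 0.12, adjusted p = 0.000175); CD24 has near-identical copies in the genome that could share its reads. RAG2, a subunit of the recombinase that joins antigen receptor segments, rose 4.76-fold from 0.529, 0.916 and 0.310 to 3.28, 2.94 and 2.10 CPM (SE 0.34, adjusted p = 0.00134). IL7R, the interleukin 7 receptor chain, rose 4.58-fold from 0.529, 0.534 and 1.18 to 3.53, 2.62 and 4.35 CPM (SE 0.30, adjusted p = 0.000618). All 3 R369W libraries were above all 3 EV libraries for both, at low levels. With ETV6, RAG2 and IL7R averaged 0.448 and 0.443 CPM. The filter let both in through the R369W libraries, so they had to differ. Of the defining B-cell markers, MS4A1 had 0 reads and PAX5 had 4 reads in the 6 libraries. Of the T and NK lymphoid genes 4 of 22 passed the filter, and none was called.

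Of 29 cytokine receptors tested, 4 (13.8%) were higher and none lower, with a median log2 change of 0.09. Over all genes tested, 1.79% were higher and 0.349% lower. KIT, the stem cell factor receptor of blood progenitors and mast cells, stood at 29.8, 68.2 and 39.6 CPM with EV and 52.5, 126 and 63.9 CPM with R369W. The groups overlapped, with EV replicate 3 above R369W replicates 2 and 4, and the rise was 1.75-fold (log2 0.80, SE 0.07, adjusted p = 3.85e-06). IL6R, the interleukin 6 receptor chain, rose 2.28-fold from 5.44, 5.96 and 5.39 to 13.2, 14.0 and 11.0 CPM, with no overlap and a call lost without R369W replicate 3 (adjusted p = 0.00258, and 0.0723 without it). CSF2RB, the shared beta chain of the receptors for interleukin 3, interleukin 5 and GM-CSF, rose 1.36-fold from 119.8, 115 and 40.1 to 143, 149 and 67.5 CPM (adjusted p = 0.00498, and 0.0564 without EV replicate 4). R369W replicate 4 was below EV replicates 2 and 3, so the groups overlapped. IL7R was the fourth, and the filter let it in only through the R369W libraries, so it had to differ.

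Of 35 myeloid genes 13 were tested, and 4 (30.8%, against 1.79% of all genes tested) were higher and none lower (median 0.21). FCER1G, the signalling gamma chain shared by Fc receptors and by the platelet collagen receptor, stood at 19.2, 36.6 and 26.4 CPM with EV and 38.6, 93.2 and 90.7 CPM with R369W. All 3 R369W libraries were above all 3 EV libraries, and the rise was 2.66-fold (log2 1.41, SE 0.12, adjusted p = 2.43e-06). ITGAM, the integrin alpha M chain of myeloid cells, rose 1.40-fold from 117, 134 and 81.7 to 146, 169.5 and 141 CPM without overlap (adjusted p = 0.00451; lost without EV replicate 4 or R369W replicate 3). CD33, a sialic acid-binding receptor of myeloid progenitors, rose 1.30-fold from 355, 351 and 279.8 to 406, 419.9 and 452 CPM without overlap (adjusted p = 0.0169; lost without EV replicate 4 or R369W replicate 3 or 4). CSF2RB was the fourth member. The 4 myeloid marker genes summed to 82.1 to 134 CPM with EV and 142 to 170 CPM with R369W, nearly all of it ITGAM, and the part of cell makeup in these rises was not tested. SPI1, the myeloid master regulator PU.1, averaged 42.4 and 44.8 CPM (adjusted p = 0.694), MPO had 0 reads in the 6 libraries, CSF1R had 9 and CD14 had 24.

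Of 11 mast cell and basophil genes tested, 4 (36.4%, against 1.79% of all genes tested) were higher and none lower (median 0.26). They were KIT, TPSAB1, FCER1A and HDC. TPSAB1, which encodes mast cell tryptase, stood at 50.6, 118 and 1.86 CPM with EV and 75.5, 161 and 3.50 CPM with R369W. Replicate 4 was very low with either vector, so the groups overlapped (adjusted p = 0.0118; lost without EV replicate 2 or R369W replicate 3). FCER1A, the IgE-binding chain of the high-affinity receptor, and HDC, which makes histamine, rose 1.21-fold and 1.20-fold (adjusted p = 0.0175 and 0.0233). The call of FCER1A was lost without each of the 6 libraries and that of HDC without all but R369W replicate 4 (adjusted p up to 0.166 and 0.203).

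Of 26 megakaryocyte and platelet genes tested, 5 (19.2%, against 1.79% of all genes tested) were higher and none lower. The median log2 change was 0.02. GP6, the platelet collagen receptor that signals through FCER1G, stood at 55.4, 98.7 and 96.0 CPM with EV and 113, 184 and 213 CPM with R369W. Each R369W library was above every EV library, and the rise was 2.04-fold (log2 1.03, SE 0.07, adjusted p = 3.17e-07). The other calls were of small changes. NBEAL2, needed to form alpha granules, rose 1.23-fold and VAMP8, a granule release SNARE, 1.22-fold (adjusted p = 0.0418 and 0.0348). The first held only without R369W replicate 2, and the second was lost without each of the 6 libraries. FCER1A and P2RX1, an ATP-gated channel of platelets, completed the 5. ITGA2B, the integrin chain that makes the fibrinogen receptor, averaged 991 CPM with EV and 1003 CPM with R369W (log2 change 0.02, SE 0.05, adjusted p = 0.903), and its partner ITGB3 averaged 42.1 and 42.3 CPM (adjusted p = 0.970). GATA1, the lineage's transcription factor, averaged 213 and 217 CPM (adjusted p = 0.839). Of 43 erythroid genes tested, 2 (4.65%) were higher and none lower (median 0.04). ALAD, a heme synthesis enzyme, rose 1.45-fold from 24.9, 17.2 and 18.1 to 31.6, 26.7 and 28.6 CPM without overlap (adjusted p = 0.00439; lost without EV replicate 3 or 4 or R369W replicate 3), and HBE1, embryonic globin, rose 1.31-fold with a call that held only without EV replicate 3.

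**Figure D2:**
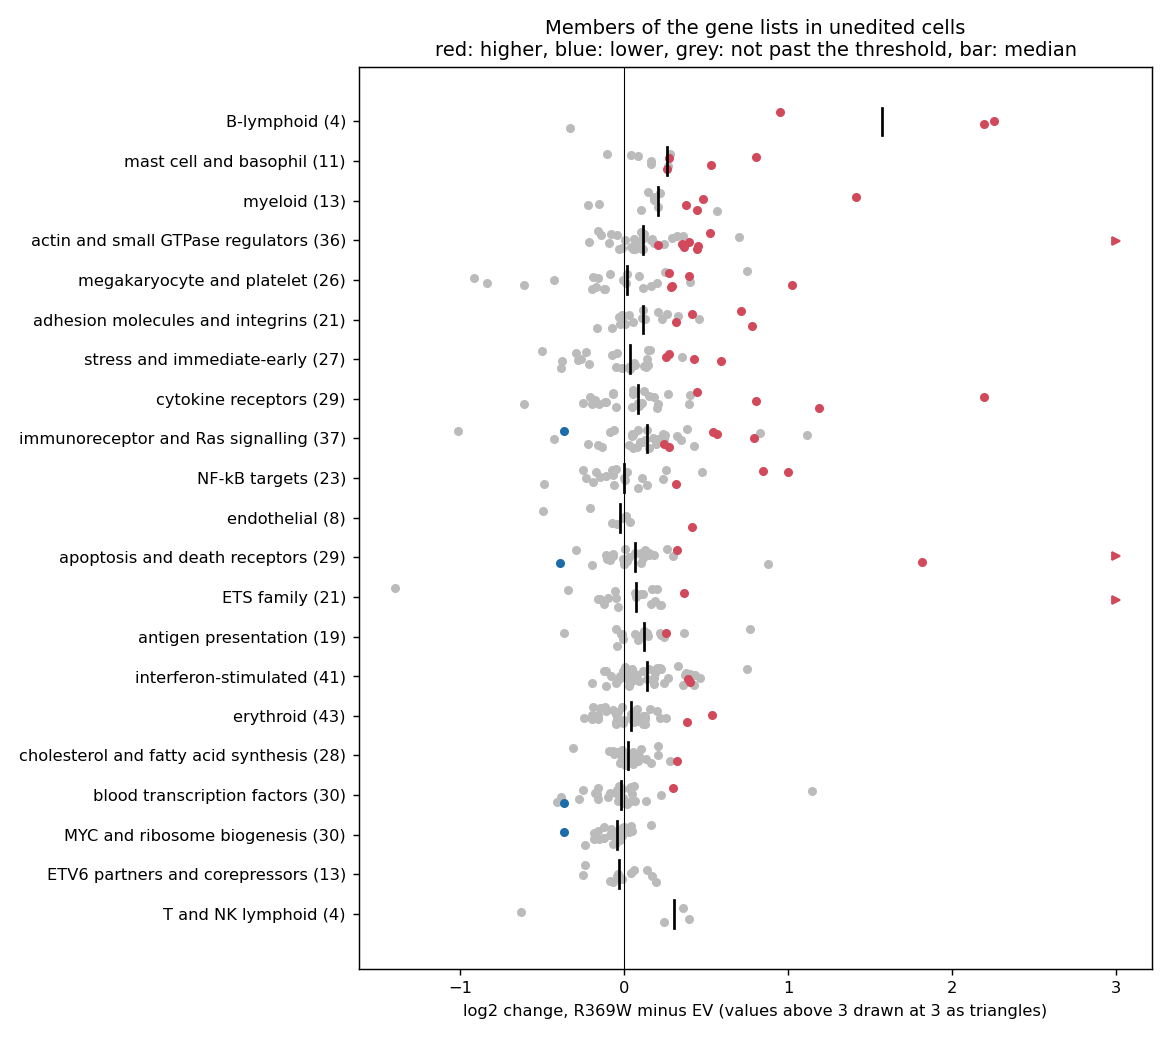
Log2 change, R369W minus EV, of every tested member of 21 gene lists, with the number tested beside each name (red higher, blue lower, grey not past the threshold, bar the list's median). Values above 3 are drawn at 3 as triangles (CLIC5, BIRC7 and ETV6), and most medians lie near 0, with that of the 4 B-lymphoid genes at 1.57. Of these 4, RAG2 and IL7R passed the filter through the R369W libraries, where they are high, as did CLIC5 and BIRC7 of other lists.

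Of 37 immunoreceptor and Ras signalling genes tested, 5 (13.5%, against 1.79% of all genes tested) were higher and 1 lower (median 0.14). VAV1, a guanine nucleotide exchange factor that passes receptor signals to Rac, stood at 107, 142 and 88.2 CPM with EV and 170.2, 219 and 187 CPM with R369W. The groups did not overlap, and the rise was 1.73-fold (log2 0.79, SE 0.07, adjusted p = 9.83e-06). PIK3CG, the gamma catalytic subunit of phosphoinositide 3-kinase in leukocytes, rose 1.46-fold from 84.6, 91.9 and 69.7 to 119.7, 123 and 114 CPM, also without overlap (adjusted p = 0.000174). PIK3R6, a regulatory subunit of the same enzyme, rose 1.48-fold (adjusted p = 0.00498, and 0.0981 without R369W replicate 3). SYK, the tyrosine kinase recruited by FCER1G, rose 1.21-fold from 87.6, 94.5 and 73.8 to 101, 116 and 91.6 CPM, with overlap and a call that held only without EV replicate 2 (adjusted p = 0.0206). PTPN6 was the fifth, and SPRED1, an inhibitor of the Ras pathway, was the member that fell.

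Of 36 regulators of actin and small GTPases, 8 (22.2%, against 1.79% of all genes tested) were higher and none lower (median 0.12). Besides CLIC5 they included ARHGDIB, a regulator of small GTPases, which stood at 244, 299.9 and 400.4 CPM with EV and 319, 402 and 581 CPM with R369W. The groups overlapped, because replicate 4 was highest with either vector (1.37-fold, SE of log2 0.05, adjusted p = 7.32e-05). WAS, which links Cdc42 to actin assembly and is mutated in Wiskott-Aldrich syndrome with small platelets, rose 1.36-fold from 56.2, 76.5 and 55.8 to 76.7, 103 and 76.6 CPM, with R369W replicates 2 and 4 level with EV replicate 3 (adjusted p = 0.000765). ARHGAP15, a Rac GTPase-activating protein, rose 1.29-fold from 117, 126 and 121 to 149, 166 and 154 CPM, with R369W above EV in every library (adjusted p = 0.00115). The remaining members past the threshold were ARHGAP30, FMNL1, RINL and LCP1. CLIC5 passed the filter only through the R369W libraries, so it had to differ.

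Of 21 adhesion molecules and integrins tested, 4 (19.0%, against 1.79% of all genes tested) were higher and none lower (median 0.12). CD44, the hyaluronan receptor, stood at 148, 275 and 222 CPM with EV and 263, 430.3 and 354 CPM with R369W. R369W replicate 2 lay below EV replicate 3 and each pair rose (1.64-fold, log2 0.72, SE 0.05, adjusted p = 5.11e-07). ICAM2 rose 1.25-fold from 137, 127 and 125 to 162, 166 and 157 CPM without overlap (lost without EV replicate 3 or R369W replicate 3). PECAM1, a surface molecule of platelets and endothelium, rose 1.33-fold (adjusted p = 0.00166, and 0.0698 without R369W replicate 3), and it was the only one of 8 endothelial genes tested that passed. The 3 endothelial marker genes summed to 28.0 to 73.1 CPM with EV and 23.8 to 62.3 CPM with R369W. ICAM1, a ligand of leukocyte integrins, rose 1.72-fold from 7.18, 5.34 and 6.13 to 10.5, 8.33 and 13.2 CPM, also without overlap, with a call that held only without EV replicate 2 (adjusted p = 0.0336).

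Inflammatory lists also held calls. Of the tested members, 13.0% of NF-kB targets, 4.88% of interferon-stimulated and 5.26% of antigen presentation genes were higher. Over all genes tested the share was 1.79%. Of 23 NF-kB targets, 3 were higher and none lower, and the list's median was -0.00225. CCL2, a chemokine, rose 2.00-fold from 2.80, 4.28 and 1.86 to 5.01, 8.65 and 4.12 CPM (adjusted p = 0.00768; lost without EV replicate 3 or 4 or R369W replicate 3), and IL1B rose 1.24-fold with a call that held only without EV replicate 2. For CCL2, R369W replicate 4 was just below EV replicate 3. TNFAIP2 lost its call without each of the 6 libraries. Of 41 interferon-stimulated genes, IFITM2 and BST2 were higher (1.31-fold and 1.32-fold) and none lower (median 0.14). IFITM2, which has close relatives that may share its reads, held only without EV or R369W replicate 2, and BST2 only without R369W replicate 2. Of 19 antigen presentation genes, HLA-E was the only one past the threshold (1.19-fold; held only without EV replicate 3). Of 29 apoptosis genes, 3 (10.3%) were higher, BIRC7 and TNFSF10 among them, and PMAIP1 was lower (median 0.06). BIRC7 passed the filter only through the R369W libraries, so it had to differ. PMAIP1, the BH3-only protein NOXA, fell by 0.39 on the log2 scale from 52.4, 48.3 and 64.5 to 44.9, 36.7 and 44.1 CPM, without overlap (held only without EV or R369W replicate 2).

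Among transcription factors, 2 of 21 ETS family genes (9.52%, against 1.79% of all genes tested) were higher: ETV6 itself and FLI1. FLI1, an activator of megakaryocyte genes, stood at 50.9, 77.6 and 96.6 CPM with EV and 60.8, 98.8 and 134 CPM with R369W. The numbers differed more than the vectors, so the groups overlapped (1.29-fold, SE of log2 0.07, adjusted p = 0.00526; lost without EV replicate 4 or R369W replicate 3 or 4). Of 30 blood transcription factors 1 rose (3.33%) and 1 fell. MYB, which maintains immature progenitors, rose 1.23-fold from 361, 364 and 260.4 to 398, 440.3 and 363 CPM (adjusted p = 0.0176; held only without EV or R369W replicate 2), with R369W replicate 4 level with EV replicate 3. MYC, a driver of growth and ribosome production, fell 1.29-fold from 952, 842 and 844 to 692, 653 and 698 CPM. Every R369W library was below every EV library (log2 -0.36, SE 0.06, adjusted p = 0.00175). It was the only one of 30 MYC and ribosome biogenesis genes past the threshold, and 8 of the 30 lay above 0 (median -0.04). None of 13 partners and corepressors of ETV6 passed; HDAC3 averaged 167 CPM with EV and 192 CPM with R369W (adjusted p = 0.116), and NCOR1 203 and 199 CPM (adjusted p = 0.812).

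Genes that fell were fewer, 0.349% of genes tested against 1.79% that rose. No list held more than 1 of them, and at that share a short list holds few. WNT7A, a secreted WNT ligand, fell 2.05-fold from 8.01, 9.62 and 13.4 CPM to 4.27, 5.40 and 5.59 CPM. The groups did not overlap, but the call was lost without EV replicate 4 or R369W replicate 2 or 3 (log2 -1.03, SE 0.22, adjusted p = 0.0185, and up to 0.158). SKIL, a brake on TGF-beta signalling, fell 1.51-fold from 34.8, 23.5 and 32.9 to 22.2, 16.6 and 21.4 CPM without overlap (adjusted p = 0.00181). PARD3B, a polarity protein, and GARRE1, a Rac-binding protein, fell 1.32-fold each, from 47.0, 42.6 and 92.7 to 34.6, 35.8 and 65.3 CPM and from 50.9, 43.4 and 63.2 to 35.7, 32.6 and 51.3 CPM (lost without EV or R369W replicate 4 for PARD3B and without R369W replicate 3 for GARRE1). In both, R369W replicate 4 was above EV replicates 2 and 3. LONRF2, which encodes a RING finger protein, fell 1.32-fold (lost without EV or R369W replicate 3). SLC7A11, the cystine transporter, fell 1.41-fold, and PLEC, the cytoskeletal linker plectin, fell 1.42-fold (held only without EV replicate 4, and only without EV replicate 2 or R369W replicate 4). RHOBTB3 and CROCC fell 1.58-fold and 1.40-fold, held only without EV replicate 4 and only without EV replicate 2. CTXN1, KIAA1671 and SLC22A23 fell 1.91-fold, 1.89-fold and 1.44-fold and lost their calls without each of the 6 libraries (adjusted p up to 0.3, 0.313 and 0.19).

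A few calls were of genes that stood at a like level with the ETV6 vector. Of 27 stress and immediate-early genes, 4 (14.8%, against 1.79% of all genes tested) were higher and none lower (median 0.04). They were the heat shock chaperones HSPA1A and HSPA8 and their partners DNAJB1 and BAG3. HSPA1A stood at 17.9, 16.2 and 6.87 CPM with EV, 24.6, 29.1 and 9.17 CPM with R369W and 23.9, 27.8 and 7.51 CPM with ETV6. HSPA8, in the same order of vectors, stood at 3727, 3610.5 and 3184 CPM, 4286, 4508 and 3745 CPM and 4281, 4559 and 3677 CPM. Each pair rose with either vector, and R369W minus ETV6 was 0.10 (SE 0.11) and 0.00 (SE 0.05) on the log2 scale. The share of reads that did not align also set the 3 EV libraries apart from the libraries of both vectors, and its part in these calls was not tested. HSPA1A was lost without EV or R369W replicate 3, and HSPA8 without EV replicate 3 or R369W replicate 3 or 4. DNAJB1 held only without EV or R369W replicate 4, and BAG3 was lost without EV or R369W replicate 3. IDI1, an enzyme of isoprenoid synthesis, was the only one of 28 cholesterol and fatty acid genes past the threshold (3.57%). It stood at 155, 191 and 104 CPM with EV, 199.8, 248 and 121 CPM with R369W and 178, 252 and 108 CPM with ETV6. Its call held only without EV or R369W replicate 4, and the groups overlapped.

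The change with R369W was set beside that with ETV6 of normal sequence in the same unedited cells. Both changes share the 3 EV libraries, so they are given side by side, and the difference is tested by R369W against ETV6 in the same fit, in which 1197 genes were higher (10.2%) and 783 lower (6.67%). Between ETV6 and EV in that fit, 644 genes were lower (5.49%) and 312 higher (2.66%). Several genes that rose with R369W were lower with ETV6 than with EV. CD24 averaged 41.8 ± 10.4 CPM (SD, n = 3) with ETV6, all 3 libraries below the EV libraries, a log2 change of -2.51 (SE 0.13, adjusted p = 7.41e-09) against 0.95 with R369W. VAV1 stood at 46.5, 62.1 and 46.7 CPM with ETV6, also below every EV library, with changes of -1.11 and 0.79. GP6 changed by -1.03 with ETV6 and by 1.03 with R369W, KIT by -0.91 and 0.80, and CD44 by -0.39 and 0.72 (adjusted p with ETV6 = 2.73e-07, 9.78e-07 and 0.000129). R369W minus ETV6 was 3.46 (SE 0.13, adjusted p = 7.08e-11) for CD24, 1.90 (SE 0.08, 9.94e-11) for VAV1 and 2.06 (SE 0.08, 7.08e-11) for GP6. For some genes the fall with ETV6 was the larger change: CSF2RB fell by 1.66 with ETV6 and rose by 0.45 with R369W, CD33 changed by -1.21 and 0.38, ITGAM by -1.31 and 0.48, and ICAM1 by -1.91 and 0.78. For others the rise with R369W was the larger: FCER1G changed by -0.60 and 1.41, and IL7R by -0.77 (adjusted p = 0.36) and 2.19. CLIC5, MYT1 and BIRC7 had 0 reads in all 3 ETV6 libraries. WNT7A showed the opposite order, 26.3, 28.1 and 18.1 CPM with ETV6, above every EV library, against 8.01, 9.62 and 13.4 CPM with EV and 4.27, 5.40 and 5.59 CPM with R369W (R369W minus ETV6 -2.24, SE 0.20, adjusted p = 5.9e-07). FCER1A, VAMP8, ICAM2 and ARHGAP15 rose with R369W, and with ETV6 their log2 changes were 0.07, -0.04, 0.02 and -0.14 (adjusted p = 0.563, 0.819, 0.86 and 0.144). SKIL, SLC7A11 and SLC22A23 fell with both, by 0.48, 0.51 and 0.76 with ETV6 and by 0.59, 0.50 and 0.53 with R369W. HBE1 rose with both, by 0.60 with ETV6 (adjusted p = 0.000468) and 0.39 with R369W. For SKIL, SLC7A11, SLC22A23 and HBE1, R369W against ETV6 did not pass. For FCER1A, VAMP8, ICAM2 and ARHGAP15 it did (adjusted p = 0.0206, 0.00324, 0.00147 and 5.26e-06). MYC changed by -0.07 with ETV6 (adjusted p = 0.511) and differed between the vectors (R369W minus ETV6 -0.29, SE 0.06, adjusted p = 0.00172).

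**Figure D3:**
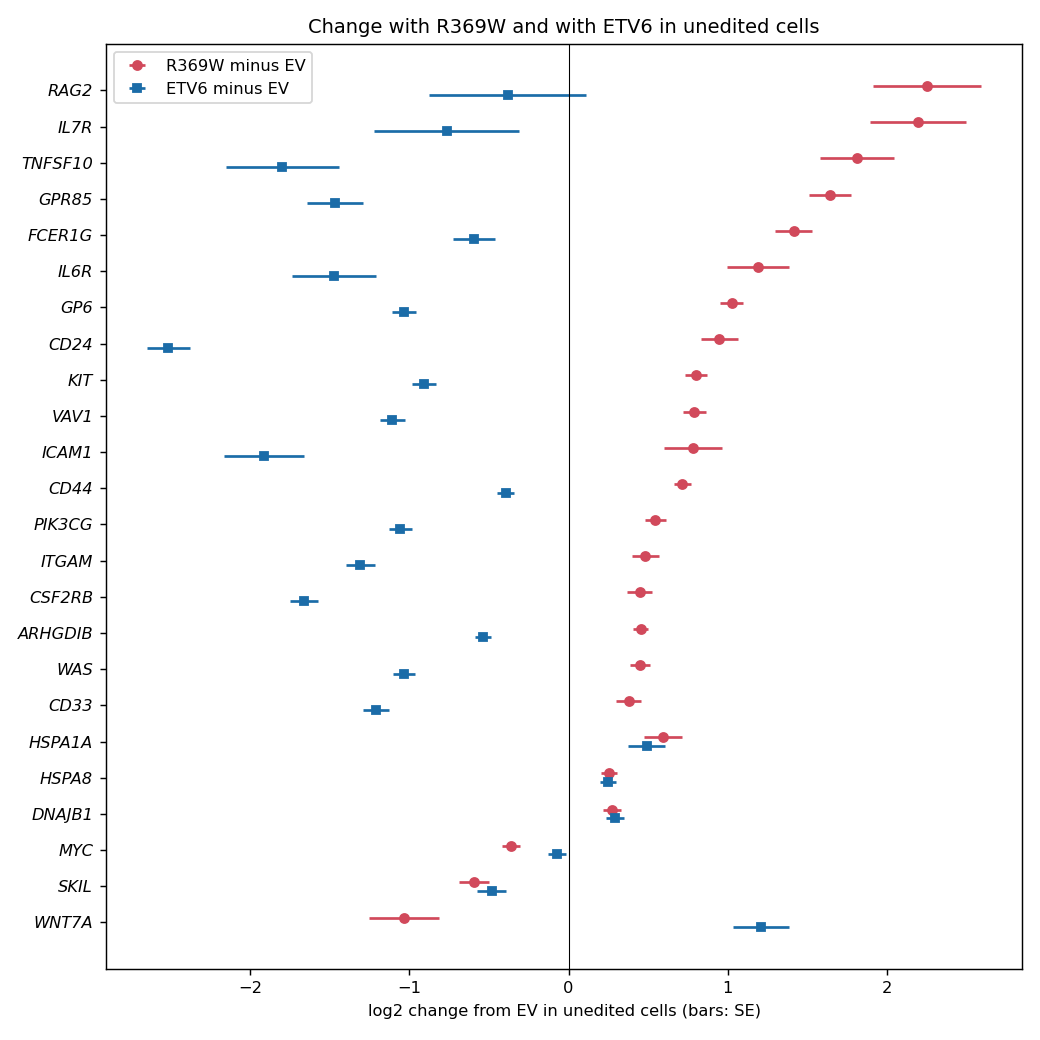
Log2 change from EV in unedited cells with R369W (red circles) and with ETV6 (blue squares) for 24 named genes, with SE bars from the fit with the replicate block. From RAG2 down to CD33 the red points lie right of 0 and the blue points left of it, the 3 heat shock genes lie right of 0 with both vectors, and WNT7A lies left with R369W and right with ETV6.

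The 9 knockout libraries did not enter the fit that called these genes and share none with the comparison. The genes named, the lists and the tests were chosen with earlier results of these data known. With 1 mean per group over all 18 libraries and no block, 193 of 12262 genes (1.57%) were lower and 31 (0.253%) higher with ETV6 than with EV in knockout cells. Of the 209 genes raised by R369W in unedited cells, ETV6 itself left out, 56 (26.8%) were among the lower ones and 0 among the higher ones. Their median log2 change was -0.57, against -0.00178 over all genes, and 181 of the 209 lay below 0. Leaving out each of the 6 knockout libraries in turn gave 42 to 47 of the 209. When the 6 knockout EV and ETV6 libraries were fitted alone and blocked by number, more genes passed: 13.9% of all genes lower and 10.8% higher, and of the 209, 153 lower (73.2%) and 13 higher (6.22%). Unaligned reads made up 0.527% to 0.698% of the knockout EV libraries and 0.289% to 0.324% of the knockout ETV6 libraries. Reads of low alignment quality made up 1.84% to 2.97% and 3.40% to 4.46% of them, and the part of these shares in the calls was not tested. With R369W in knockout cells, 7 genes (0.0571%) passed in all; 0 of the 209 did, and their median was 0.10. The 41 lowered genes had a median of 0.08 with ETV6 in knockout cells, where WNT7A rose and ATAD1 fell, and of -0.26 with R369W, where 0 passed (33 of 41 lay below 0).

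Levels in knockout cells differed widely among these genes. CLIC5 averaged 225 ± 27.1 CPM (SD, n = 3) with EV in knockout cells, 1.06 ± 0.221 with ETV6 and 163 ± 15.2 with R369W, against 0.248 ± 0.248 with EV and 16.6 ± 11.6 with R369W in unedited cells. ETV6 minus EV was -7.72 on the log2 scale (SE 0.61, adjusted p = 1.74e-05). BIRC7 averaged 44.9 ± 20.7 CPM with EV, 1.26 ± 0.610 with ETV6 and 47.0 ± 10.3 with R369W (ETV6 minus EV -5.15, adjusted p = 0.000231). MYT1 averaged 12.6 ± 3.22, 0.177 ± 0.115 and 12.7 ± 0.798 CPM (-6.09, adjusted p = 3.43e-05). For all 3 genes the mean of the unedited R369W libraries lay above that of the unedited EV libraries and below that of the knockout EV libraries. CD24 averaged 628 ± 31.9 CPM with EV in knockout cells, 113 ± 21.1 with ETV6 and 595 ± 88.6 with R369W, and VAV1 233 ± 40.8, 74.0 ± 2.22 and 256 ± 74.8 CPM. ETV6 minus EV was -2.48 for CD24 (SE 0.30, adjusted p = 0.000248), -1.66 for VAV1, -1.32 for PIK3CG, -2.01 for ITGAM, -1.55 for CD33, -0.79 for SYK and -1.86 for RAG2 (adjusted p = 0.000432, 6.37e-06, 0.000196, 4.3e-06, 0.00212 and 0.0373). R369W minus EV in knockout cells was -0.07, 0.14, -0.23, -0.20, -0.08, 0.11 and 0.23 for the same 7 genes, and none passed. Others that rose with R369W in unedited cells did not pass with ETV6 in knockout cells: GP6 (-1.03, SE 0.35, adjusted p = 0.207), KIT (-0.57, SE 0.70, 0.821), CD44 (-0.75, SE 0.32, 0.338) and FCER1G (-1.06, SE 0.29, 0.09). These knockout values come from the fit without a block. In that fit the rises of GP6, KIT, CD44 and FCER1G with R369W in unedited cells did not pass either, nor did those of the 7 genes above. WNT7A averaged 0.325 ± 0.156 CPM with EV, 4.08 ± 3.43 with ETV6 and 0.530 ± 0.334 with R369W in the knockout libraries, and its rise with ETV6 was 3.59 (SE 0.61, adjusted p = 0.00415).

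**Figure D4:**
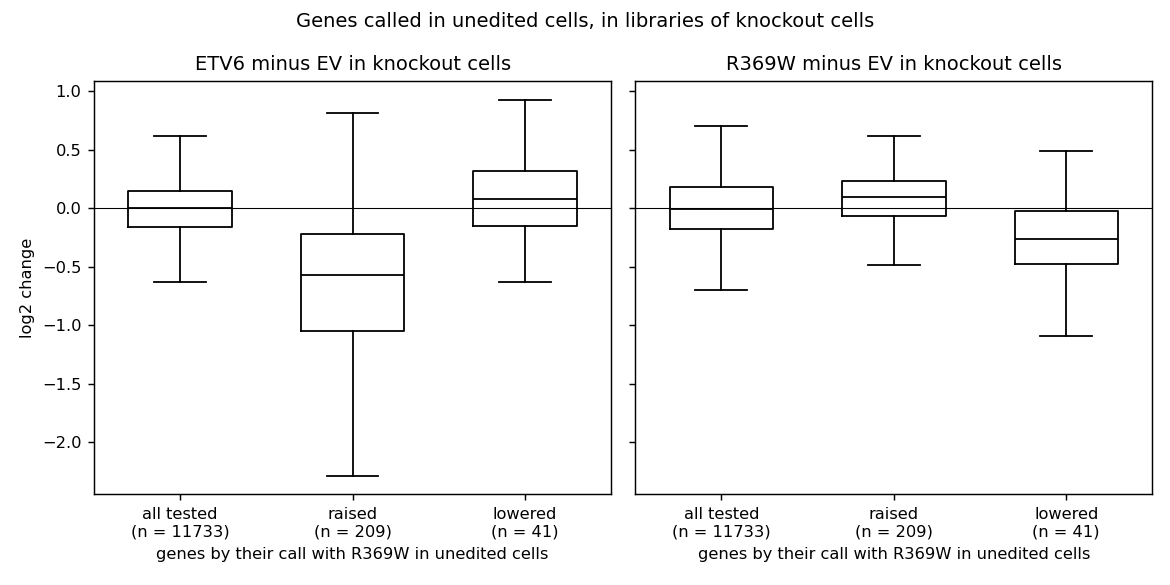
Log2 changes in knockout cells of all 11733 genes tested in unedited cells, of the 209 genes raised and of the 41 lowered by R369W there, with ETV6 against EV on the left and R369W against EV on the right (box quartiles, line median, whiskers up to 1.5 times the box length, points beyond not drawn). The box of the raised genes lies below 0 with ETV6 (median -0.57) and near 0 with R369W (median 0.10).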

How the data were processed

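The authors deposited raw read counts per gene, with 1 column for each library; the submitters' processing notes name HISAT2, SAMtools, HTSeq and GRCh38 without versions. The sources used here give neither annotation nor strand setting, so overlapping antisense genes and near-identical copies (CD24, TPSAB1, HSPA1A, IFITM2, HLA-E) may share reads. The 5 entries for reads given to no gene were dropped. Of 20833 identifiers, 20713 were named from the gene name table and 114 from GENCODE 29. Counts were fitted with edgeR 4.0.16 (R 4.3.3; filterByExpr, TMM, quasi-likelihood F test, two-sided) on the 9 unedited libraries with the replicate number as a block, leaving 4 residual degrees of freedom; knockout contrasts and the interaction used all 18 libraries without a block. The smallest p of an exact test on 3 and 3 libraries is 0.1. The SE is the log2 change divided by the root of F. The pipeline was tested on simulated counts.

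The genes, the 21 lists, the pairing and the tests were chosen with earlier results of these data known. The naming rule takes ETV6; the 15 largest rises, 10 largest falls, 8 and 5 smallest adjusted p among rises and falls, each with a mean of at least 1 CPM and the same direction in all 3 pairs; and up to 4 called members of each list. ATAD1, P2RX1, PTPN6, SPRED1, ARHGAP30, FMNL1, RINL, LCP1 and the genes given for comparison lie outside it and were named after their values were seen. A few genes that the rule or the lists take are not reported here. Alternatives were no block, other libraries, RLE factors, DESeq2 1.42.0, limma-voom (limma 3.58.1), other filters and leaving libraries out.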

Additional observations from a re-analysis of the deposited data

Results flagged for a closer look

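The change with R369W differed between unedited and knockout cells for 5 genes by a test of the interaction (edgeR, 18 libraries, no block). CLIC5 and MYT1 rose in unedited cells and did not pass in knockout cells, with a difference of 6.54 (SE 0.88, adjusted p = 0.0171) and 6.89 (SE 0.79, adjusted p = 0.0108) on the log2 scale, unedited minus knockout. With R369W in knockout cells their changes were -0.46 and 0.02, from knockout EV levels far above those of unedited EV cells. MYT1 was near 0 reads with EV in unedited cells, so its fitted difference depends on the prior count. The other 3 genes moved mainly in knockout cells and did not pass in unedited cells. FCHSD2 differed by 1.43 (SE 0.19, adjusted p = 0.0118), from 0.19 in unedited and -1.25 in knockout cells. ZDHHC3 differed by 1.07 (SE 0.16, adjusted p = 0.0171), from 0.24 and -0.83. EZH2, the methyltransferase of the Polycomb complex, differed by 1.12 (SE 0.18, adjusted p = 0.0364), from 0.12 and -1.01.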

How the results depend on the processing

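The number of calls depended on the design more than on the tool. With the pairing by replicate number 210 genes were higher and 41 lower; with no replicate block 1 and 0 were in the 9 unedited libraries, and 3 and 0 in all 18. With the replicate block in the 6 EV and R369W libraries only, 499 and 272 passed, and with no filter beyond 1 read 384 and 157. All 251 genes kept their direction in each of these fits, which reuse the same libraries. RLE factors called 272 genes (251 shared), DESeq2 188 (182 shared), limma-voom 223 (220 shared) and a filter at a mean of 1 CPM 276 (250 shared). Leaving out single libraries gave 64 to 145 higher and 4 to 17 lower genes, and leaving out replicate 2, 3 or 4 altogether gave 173, 40 and 122 higher and 27, 1 and 33 lower; no gene changed direction where it was tested. ETV6 passed in every alternative. Of the 68 named genes, 67 lost their call without the block in 9 libraries, 15 with DESeq2 and 9 with limma-voom. Between R369W and ETV6, 1980 genes differed, 92 without the replicate block, and 967 to 2242 without single libraries (967 without ETV6 replicate 3, 987 and 1149 without R369W replicate 3 and 4). In knockout cells, 224 genes changed with ETV6 (2904 with the replicate block in the 6 libraries compared; 132 to 161 without single libraries) and 7 with R369W (0 with the block; 3 to 11 without single libraries). Of the 209 raised genes, 56 were lower with ETV6 in knockout cells, 153 with the replicate block, 61 in the 9 knockout libraries alone and 42 to 47 without single libraries, all chosen after the data were seen. Of 168 list medians under other settings, 19 moved by more than the spread between pairs, 1 of them without the block and 0 with RLE factors. Depth limits the lowest genes, since 3 reads in a library are 0.187 to 0.239 CPM. The causes of these differences were not tested.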
